A study of Homo sapiens with 6 samples.

Results

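The genes of complex I that are encoded in the nucleus were examined in RNA-seq libraries labelled A549, an established line from a human lung adenocarcinoma. Cells had received SF3B4 siRNA in 3 libraries and scramble siRNA, a control, in 3 others. Members were all protein-coding genes whose symbol starts with NDUFA, NDUFB, NDUFC, NDUFS or NDUFV and a digit, or with NDUFAF and a digit. Of 50868 gene identifiers in the deposited tables, 111 had such a symbol and 47 of these were protein-coding, the other 64 being pseudogenes or other types. Described here are 46 genes, on 22 chromosomes. They were divided into 35 subunits, 8 NDUFAF assembly factors and 3 genes that carry such a name without being subunits of complex I (NDUFA4, NDUFA4L2 and the read-through gene NDUFC2-KCTD14). The scramble siRNA libraries carry the genotype label WT. The genotype label of SF3B4 siRNA replicate 1 names SF3B4, while those of replicates 2 and 3 name SF3B5 and SF3B6, although title and treatment of all 3 name SF3B4. The deposited tables are named for another lung cancer line, H1650. Neither the siRNA sequence nor its dose and timing is stated in the sources used here, and the cells come from 1 line.

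Complex I, NADH:ubiquinone oxidoreductase, is the entry point of electrons into the mitochondrial respiratory chain. Its N module oxidises NADH, its Q module passes the electrons through iron-sulfur clusters to ubiquinone, and its membrane arm pumps protons. A set of core subunits carries out catalysis and a larger set of accessory subunits surrounds them. The mitochondrial genome encodes the core of the membrane arm (the MT-ND genes), and all other subunits are made in the cytosol and imported. The NDUFAF proteins help to build the complex and are not part of the finished enzyme. SF3B4 is a component of the SF3b complex, which recognises the branch point of introns during splicing.

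Levels are in FPKM, fragments scaled by transcript length and library total. The targeted gene, SF3B4, stood at 88.6, 92.0 and 93.8 FPKM with scramble siRNA and at 22.0, 17.7 and 22.3 FPKM with its own siRNA, a mean of 22.6% of control. Its log2 fold change was -2.15 ± 0.10 (SE; limma, Benjamini-Hochberg adjusted p = 8.8e-05), and an exact permutation test (two-sided) returned p = 0.1, the smallest that 3 libraries against 3 allow. SF3B5, named by 1 genotype label, also fell, from 426 ± 30.5 to 199 ± 8.97 FPKM (SD, n = 3; limma, adjusted p = 9.6e-05). The values of SF3B6, named by the other, were 45.9 ± 3.12 and 41.5 ± 2.20 FPKM, and it did not pass the test (limma, adjusted p = 0.18). The scaling of the values implied 17508382 to 18539118 fragments per library. Of 7 A549-typical markers checked against the label, AKR1C1, AKR1C2, ALDH1A1 and ALDH3A1 reached at most 0.107 FPKM, while NQO1 lay between 147 and 180 FPKM. AKR1B10, also in that list, was low and rose from a mean of 0.885 to 2.16 FPKM (2.44-fold; limma, adjusted p = 0.00058). VIM, the last of the list, was low and fell from 3.46 to 1.54 FPKM (log2 fold change -1.10; limma, adjusted p = 0.0021). These 7 markers summed to 173 to 184 FPKM in control and 151 to 172 FPKM in SF3B4 siRNA libraries, nearly all of it NQO1. In a list of 7 lung epithelial markers, NKX2-1 and SFTPC reached at most 0.00831 FPKM. The 7 lung epithelial markers summed to 1096 to 1280 and 1242 to 1326 FPKM, mostly keratins, and of the 5 tested CDH1 (0.87; limma, adjusted p = 0.0080) and EPCAM (0.36; adjusted p = 0.049) rose. The 4 leukocyte markers summed to 2.46 to 2.87 FPKM in control and 4.76 to 6.59 FPKM after SF3B4 siRNA, nearly all of it CD14, which rose (1.08; limma, adjusted p = 0.0013), with PTPRC at 0 in all 6 libraries. The 4 fibroblast markers summed to 2.09 to 2.21 and 2.83 to 3.20 FPKM, with 1 of 4 above 1 FPKM (COL1A1, which rose by 0.73 on the log2 scale; limma, adjusted p = 0.0023), and the 4 endothelial markers to at most 0.151 FPKM. The part of these shifts in the values of complex I genes was not tested.

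More subunit genes rose than fell after SF3B4 siRNA, by small amounts, and the changes above 1.5-fold among those described were those of NDUFA8, NDUFV1 and NDUFB7. Of the 35 subunits, 34 passed the filter on low values (FPKM of at least 1 in at least 3 libraries), 11 were called higher (32.4%) and 2 lower (5.88%) at an adjusted p under 0.05 in limma, and 21 were not called. Over all 9685 genes tested, 16.0% were called higher and 18.1% lower. Among the 4748 tested genes with a mean of at least 5 FPKM, the level at which most subunits lay, 20.7% were called higher and 19.1% lower. The median log2 fold change was 0.24 over the subunits, with 28 values above 0 and 6 below, against -0.004 over all genes tested and 0.02 over those of at least 5 FPKM. Of the 34 tested subunits, 16 had all 3 SF3B4 siRNA libraries above the 3 controls and 3 had all below, and such separation occurred in 23.8% of all genes tested on the higher side and in 25.7% on the lower side. The 6 core subunits described, grouped after their values were seen, held 3 genes called higher and none lower (median 0.29), and the 28 tested accessory subunits held 8 higher and 2 lower (median 0.21). In bulk RNA, a change in the number of cells of a type and in RNA per cell cannot be told apart.

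**Figure D1:**
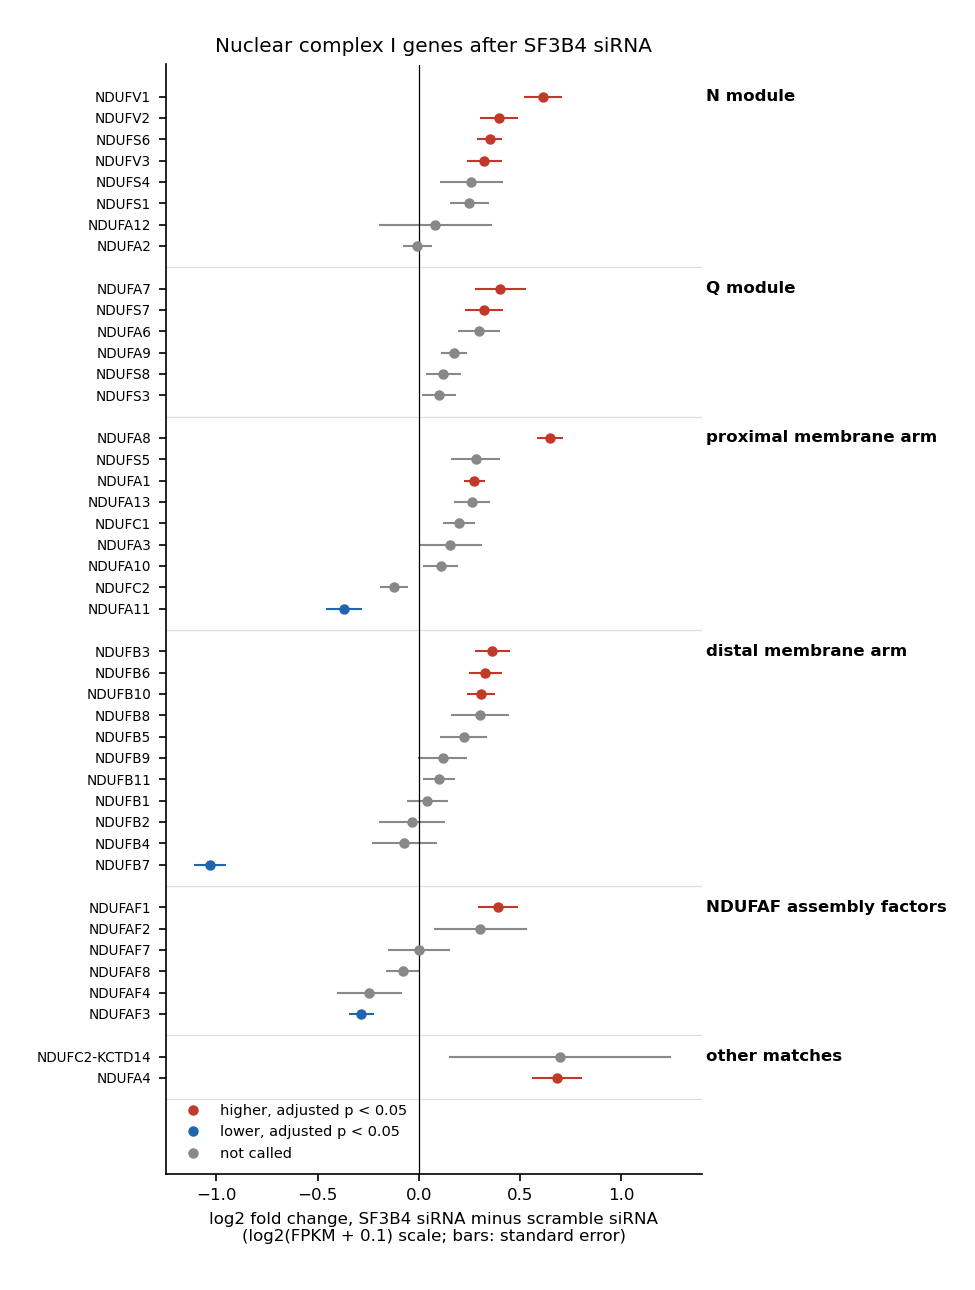
Log2 fold change of each tested complex I gene (x axis, SF3B4 siRNA minus scramble siRNA on the log2(FPKM + 0.1) scale) by module, with standard errors as bars, genes called higher in red, called lower in blue and not called in grey. NDUFA8 lies farthest to the right (0.65) and NDUFB7 farthest to the left (-1.03) among the subunits.

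The subunits differed widely in level. In the control libraries the median over the 35 subunits was 17 FPKM, 5 subunits lay at 100 FPKM or above and 7 under 10 FPKM. The distal arm subunit NDUFB7 was highest, at a mean of 381 FPKM, and NDUFS5 of the proximal arm followed at 363 FPKM. NDUFB7 and NDUFS5 did not differ beyond their spread in control libraries, since NDUFS5 ranged from 304 to 408 FPKM. The lowest was the Q module subunit NDUFA5, at 0.476 FPKM, a 799-fold difference in level from NDUFB7. The next lowest, NDUFB5, was at 2.69 FPKM. FPKM depends on the transcripts that the authors' annotation assigns to a gene, and several subunits share sequence with other genes, as described further on.

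**Figure D2:**
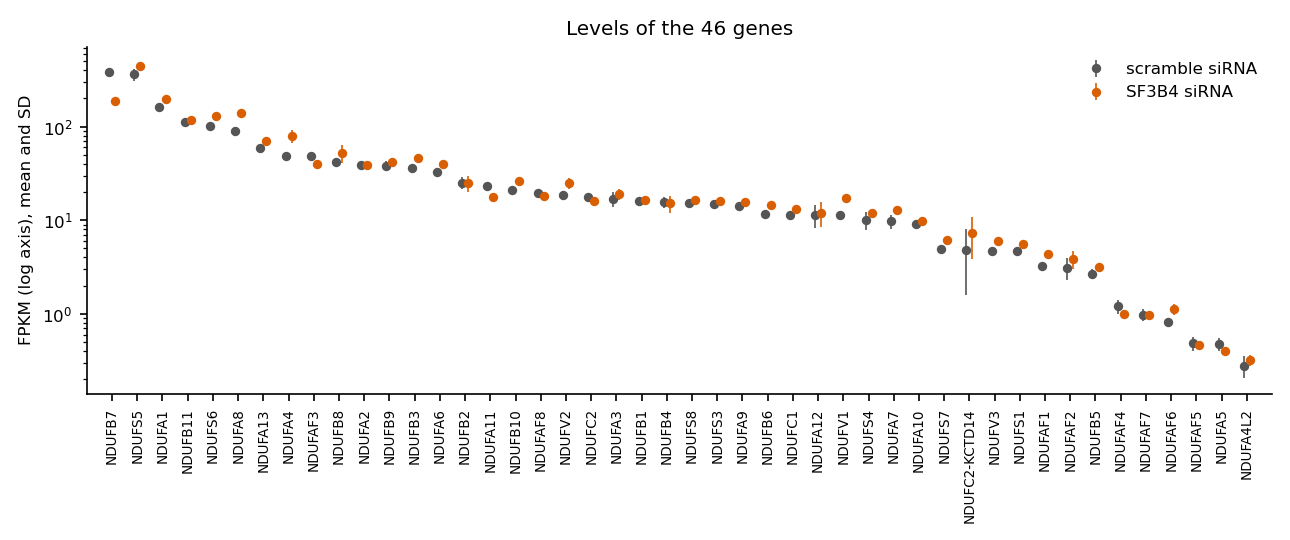
FPKM (y axis, log scale) of all 46 genes, ordered by the control mean, as the mean of 3 libraries per group with SD as bars (scramble siRNA grey, SF3B4 siRNA orange). Control levels run from 381 FPKM for NDUFB7 down to 0.279 FPKM for NDUFA4L2, with NDUFA5, NDUFAF5, NDUFAF6 and NDUFAF7 also under 1 FPKM. The SD of NDUFC2-KCTD14 is wide in both groups.

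Within the N module, which takes electrons from NADH, 4 of 8 subunits rose, none was called lower and the median log2 fold change was 0.29. NDUFV1, the core subunit that binds FMN and accepts the electrons from NADH, was at 12.3, 11.6 and 9.87 FPKM in control libraries and at 17.4, 16.5 and 17.8 FPKM after SF3B4 siRNA. All 3 siRNA libraries lay above all 3 controls, and NDUFV1 rose by 0.61 ± 0.10 on the log2 scale (SE; limma, adjusted p = 0.0028). NDUFV1 (ENSG00000167792) has 11 exons and lies at chr11:67605653-67612554 on the plus strand of GRCh38. NDUFV2, its core partner with an iron-sulfur cluster, was at 18.6, 18.9 and 18.7 FPKM in control and at 22.8, 23.4 and 28.4 FPKM after SF3B4 siRNA. The groups did not overlap and SF3B4 siRNA replicate 3 was the highest (log2 fold change 0.40 ± 0.09; limma, adjusted p = 0.014).

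NDUFS6, a zinc-binding accessory subunit at the joint with the Q module, rose from 102, 104 and 103 FPKM to 128, 140.1 and 126 FPKM (log2 fold change 0.35 ± 0.06; limma, adjusted p = 0.0042). Its control libraries lay within a few FPKM of each other and below every siRNA library. NDUFV3, a small accessory subunit, was at 4.77, 4.87 and 4.53 FPKM in control and at 6.21, 5.56 and 6.06 FPKM after SF3B4 siRNA (log2 fold change 0.32 ± 0.09; limma, adjusted p = 0.024). The call of NDUFV3 was lost without scramble siRNA replicate 3 (adjusted p = 0.081), SF3B4 siRNA replicate 1 (0.089) or SF3B4 siRNA replicate 3 (0.078), with log2 fold changes of 0.29 to 0.31. NDUFS1, the core subunit with most of the iron-sulfur clusters of the module, was at 5.14, 4.60 and 4.4 FPKM against 5.42, 5.49 and 5.94 FPKM. The groups of NDUFS1 did not overlap, yet it missed the threshold (log2 fold change 0.25; limma, adjusted p = 0.078). It passed under 3 of 17 alternative settings of the test, among them without scramble siRNA replicate 1 (0.31; adjusted p = 0.039).

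The remaining N module genes did not pass the test. NDUFS4, an accessory subunit known from Leigh syndrome, was at 10.0 ± 2.13 and 11.9 ± 1.35 FPKM (SD, n = 3), and passed only when scramble siRNA replicate 1 was left out (log2 fold change 0.42; limma, adjusted p = 0.041). NDUFA2 was at 39.2 ± 2.07 and 39.0 ± 2.16 FPKM, a log2 fold change of -0.01 ± 0.07. NDUFA12, a paralogue of the assembly factor NDUFAF2, varied most within the groups, from 7.70 to 13.5 FPKM in control and from 9.73 to 16.3 FPKM after SF3B4 siRNA, so that a change of the size seen in NDUFV3 could not be resolved there.

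In the Q module, which carries electrons to ubiquinone, 2 of the 6 tested subunits rose (33.3%), none was called lower and the median log2 fold change was 0.24. The shares to set beside these are again 20.7% higher and 19.1% lower over the tested genes of at least 5 FPKM. NDUFS7, the core subunit that hands electrons to ubiquinone through the last iron-sulfur cluster, was at 4.50, 5.40 and 5.00 FPKM in control and at 6.41, 6.08 and 6.17 FPKM after SF3B4 siRNA. NDUFA7, an accessory subunit, was at 10.9, 10.4 and 7.90 FPKM and at 12.3, 13.6 and 12.5 FPKM. In both genes the groups were apart, and both passed the threshold narrowly (NDUFS7 log2 fold change 0.32, limma adjusted p = 0.033, and NDUFA7 0.40, adjusted p = 0.043). With no filter on low values both calls were lost (adjusted p = 0.072 for NDUFS7 and 0.12 for NDUFA7), and that of NDUFA7 also without the trend and robust options (0.060). NDUFA7 lost its call when any library other than scramble siRNA replicate 1 was left out (adjusted p = 0.056 to 0.12), and its log2 fold change was 0.26 without scramble siRNA replicate 3. NDUFS7 lost its call when any library other than scramble siRNA replicate 2 was left out (adjusted p = 0.060 to 0.10).

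Of the other Q module genes, NDUFA6, a member of the LYR family that binds the acyl carrier protein, was at 28.5, 34.3 and 35.1 FPKM and at 44.6, 38.0 and 37.9 FPKM. NDUFA9, which sits where the Q module meets the membrane, was at 14.2, 14.1 and 13.7 FPKM and at 15.9, 15.7 and 16.0 FPKM. In both the groups were apart and the test missed the threshold (limma, adjusted p = 0.060 and 0.069). NDUFA6 passed under 1 and NDUFA9 under 2 of 17 alternative settings of the test. The core subunits NDUFS3 and NDUFS8 had overlapping groups, with log2 fold changes of 0.10 ± 0.08 and 0.12 ± 0.09. NDUFA5 was listed at 0.560, 0.440 and 0.430 FPKM in control and at 0.379, 0.420 and 0.397 FPKM after SF3B4 siRNA. Every siRNA library of NDUFA5 lay below every control, but the gene was under the filter and was not tested.

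In the proximal membrane arm, 2 of 9 subunits rose (22.2%), 1 fell (11.1%) and the median log2 fold change was 0.20. Over the tested genes of at least 5 FPKM, 20.7% rose and 19.1% fell. NDUFA8, an accessory subunit with paired CX9C motifs on the intermembrane space side, was at 95.9, 85.3 and 88.8 FPKM in control and at 136, 142 and 144 FPKM after SF3B4 siRNA. The lowest siRNA library was well above the highest control. The log2 fold change of NDUFA8 was 0.65 ± 0.06 (SE; limma, adjusted p = 0.00046). NDUFA8 (ENSG00000119421) has 4 exons and lies at chr9:122144058-122159819 on the minus strand. NDUFA1, a small single-span membrane subunit encoded on the X chromosome, rose from 161, 168 and 162 FPKM to 199, 203 and 192 FPKM (log2 fold change 0.27 ± 0.05; limma, adjusted p = 0.0063).

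NDUFA11, a membrane subunit with several transmembrane helices, fell. It was at 20.6, 24.9 and 23.3 FPKM in control and at 18.3, 16.7 and 18 FPKM after SF3B4 siRNA (log2 fold change -0.37 ± 0.09; limma, adjusted p = 0.015), with every siRNA library below every control. Without scramble siRNA replicate 3 its log2 fold change was -0.36 and the adjusted p 0.050, which missed the threshold before rounding. AC024592.3, an annotated gene on the same strand whose exons cover 9.7% of those of NDUFA11, went the other way, from 15, 19.6 and 20 FPKM to 35.9, 39.5 and 35.2 FPKM (log2 fold change 1.02; limma, adjusted p = 0.0008). The FPKM of AC024592.3 passed that of NDUFA11 after SF3B4 siRNA, while it lay below it in each control library. How reads were divided between the overlapping genes is not stated in the sources used here, and the part of that division in the fall of NDUFA11 was not tested.

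The other proximal arm genes did not pass. NDUFA13, also known as GRIM-19, was at 56.2, 56.8 and 64.5 FPKM and at 74.5, 75.2 and 63.4 FPKM. Only SF3B4 siRNA replicate 3 overlapped the controls (log2 fold change 0.26; limma, adjusted p = 0.058). NDUFA13 passed under 3 of 17 alternative settings of the test, among them without that library (0.34; adjusted p = 0.027) or without scramble siRNA replicate 3 (0.33; adjusted p = 0.045). NDUFS5, a CX9C subunit as NDUFA8 is, was at 408, 378 and 304 FPKM and at 394, 477 and 449 FPKM, with overlapping groups (0.28 ± 0.12; limma, adjusted p = 0.11). NDUFC1 was at 11.5 ± 0.775 and 13.2 ± 0.425 FPKM (SD, n = 3) and its neighbour in the complex, NDUFC2, at 17.6 ± 0.248 and 16.1 ± 0.849 FPKM. Their groups were apart in opposite directions, and neither passed (limma, adjusted p = 0.087 and 0.20). NDUFA3 and NDUFA10, the latter with a fold related to nucleoside kinases, had overlapping groups.

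In the distal membrane arm, 3 of 11 subunits rose (27.3%), 1 fell (9.09%) and the median log2 fold change was 0.12, against the same shares of 20.7% and 19.1%. NDUFB7, a CX9C subunit on the intermembrane space side, was at 359, 395 and 389 FPKM in control and at 197, 167 and 196 FPKM after SF3B4 siRNA. The siRNA libraries averaged 49.1% of control and lay far below every control. NDUFS5, whose control values overlapped those of NDUFB7, lay above it in every SF3B4 siRNA library (mean 439.8 FPKM), while the siRNA values of NDUFA1 (192 to 203 FPKM) overlapped those of NDUFB7. The log2 fold change of NDUFB7 was -1.03 ± 0.08 (SE; limma, adjusted p = 0.00018), rank 277 among falls over all tested genes. NDUFB7 (ENSG00000099795) has 3 exons and lies at chr19:14566078-14572062 on the minus strand. No overlapping exon or expressed pseudogene above the limits used here touched its value.

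NDUFB3, a small membrane subunit, was at 37.5, 38.7 and 32.4 FPKM and at 49.3, 46.8 and 43.5 FPKM (log2 fold change 0.36 ± 0.09; limma, adjusted p = 0.016). NDUFB6 was at 12, 12.1 and 10.7 FPKM and at 14.4, 14.2 and 15.2 FPKM (0.33 ± 0.08; adjusted p = 0.016 in limma). NDUFB10, a further CX9C subunit, was at 21.0, 20.1 and 22.6 FPKM and at 27.0, 26.0 and 25.8 FPKM (0.31 ± 0.07; adjusted p = 0.013 in limma). In all 3 genes every siRNA library exceeded every control, so that of the 4 CX9C subunits 2 rose (NDUFA8 and NDUFB10), 1 fell (NDUFB7) and 1 was not called (NDUFS5). Without SF3B4 siRNA replicate 1, NDUFB3 (0.32; adjusted p = 0.054) and NDUFB10 (0.29; adjusted p = 0.051) missed the threshold. NDUFB6 missed it without scramble siRNA replicate 3 (0.27; adjusted p = 0.053) or SF3B4 siRNA replicate 3 (0.30; adjusted p = 0.060).

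NDUFB8, whose protein is often used as a sign of assembled complex I, was at 42.1, 42.3 and 42.0 FPKM in control and at 65.3, 42.5 and 50.8 FPKM after SF3B4 siRNA. The controls were nearly equal and the siRNA libraries were not, and the gene did not pass (log2 fold change 0.30; limma, adjusted p = 0.14). It passed under 2 of 17 alternative settings of the test, among them without SF3B4 siRNA replicate 2 (0.45; adjusted p = 0.026). AL133352.1, on the same strand with exons over 33.8% of NDUFB8, was at 35.1, 36.4 and 33.6 FPKM and at 21.9, 60.4 and 38.6 FPKM, lowest in the siRNA library where NDUFB8 was highest and highest where NDUFB8 was lowest. Its part in the values of NDUFB8 was not tested. NDUFB1, NDUFB2, NDUFB4, NDUFB5, NDUFB9 and NDUFB11 had overlapping groups, with log2 fold changes from -0.07 (NDUFB4) to 0.22 (NDUFB5).

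**Figure D3:**
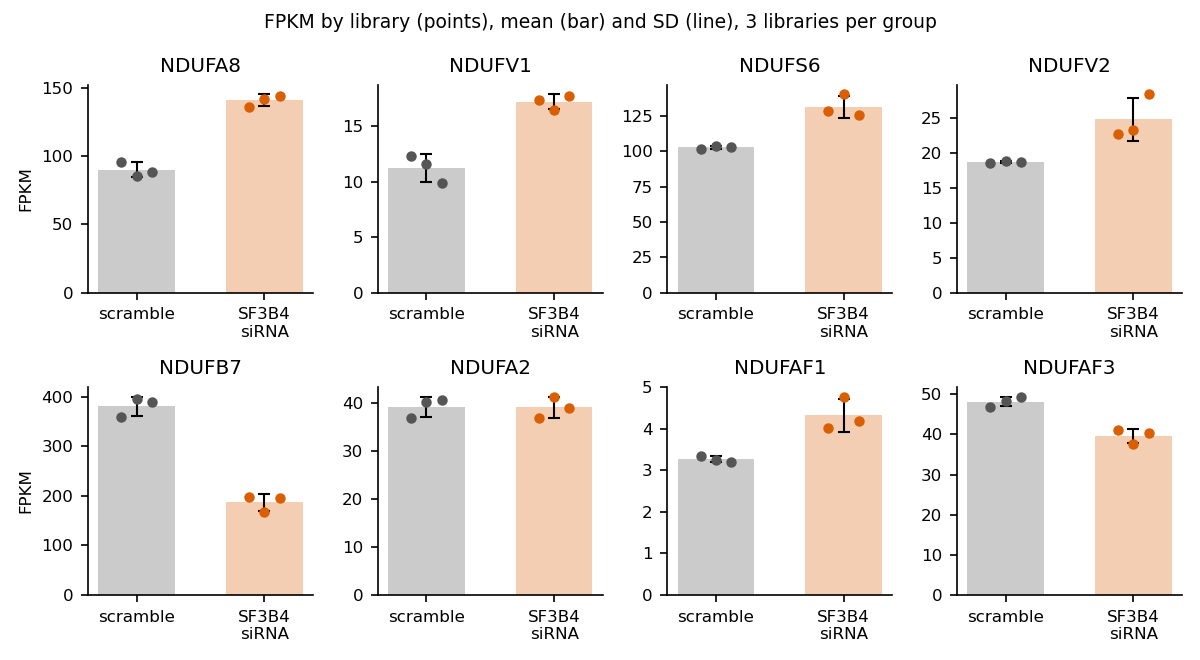
FPKM (y axis) in each library as points, with the group mean as a bar from 0 and the SD as a line, for 8 of the genes (n = 3 per group). The SF3B4 siRNA points of NDUFA8, NDUFV1, NDUFS6, NDUFV2 and NDUFAF1 lie above all scramble siRNA points, those of NDUFB7 and NDUFAF3 below, and those of NDUFA2 overlap.

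The rise over the subunits was seen in each siRNA library. Set against the mean of the controls, the median log2 difference over the 34 tested subunits was 0.24, 0.20 and 0.24 in SF3B4 siRNA replicates 1, 2 and 3, and 27, 25 and 29 subunits lay above the control mean. Of all 9685 genes tested, 4652, 4753 and 5011 lay above it. In the control libraries the same median was -0.01, 0.04 and -0.01, values held near 0 because these libraries make up that mean. By module the distal membrane arm was the least even, at 0.21, 0.01 and 0.25 in the siRNA libraries, with 10, 6 and 9 of its 11 subunits above the control mean. The N module was at 0.24, 0.28 and 0.34, the Q module at 0.29, 0.20 and 0.21 and the proximal membrane arm at 0.24, 0.18 and 0.17. Differences between the modules were not tested.

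**Figure D4:**
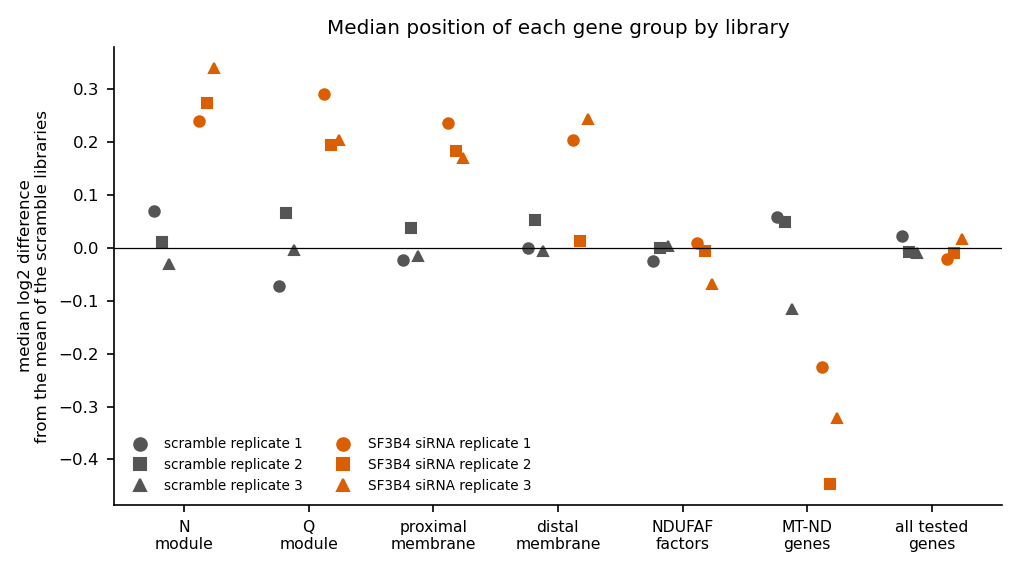
Median log2 difference from the mean of the scramble siRNA libraries (y axis) for each module, the NDUFAF factors, the MT-ND genes and all tested genes, with 1 point per library (grey scramble siRNA, orange SF3B4 siRNA). The SF3B4 siRNA points of the N module, Q module and proximal membrane arm lie above all their scramble siRNA points. In the distal membrane arm the point of SF3B4 siRNA replicate 2 lies among them. Those of the NDUFAF factors lie near 0 and the SF3B4 siRNA points of the MT-ND genes below 0.

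The NDUFAF assembly factors showed no common direction. Of 8 genes, 6 were tested, 1 rose (16.7%), 1 fell (16.7%) and the median log2 fold change was -0.04. These shares were near the 16.0% higher and 18.1% lower over all genes tested. NDUFAF1, which forms the assembly complex of the membrane arm together with ECSIT, ACAD9 and TMEM126B, was at 3.35, 3.25 and 3.20 FPKM in control and at 4.02, 4.77 and 4.18 FPKM after SF3B4 siRNA. It rose by 0.39 ± 0.10 on the log2 scale (SE; limma, adjusted p = 0.019), and missed the threshold without scramble siRNA replicate 3 (0.38; adjusted p = 0.060) or SF3B4 siRNA replicate 2 (0.32; adjusted p = 0.067). NDUFAF3, which acts with NDUFAF4 in building the Q module, was at 46.9, 48.4 and 49.3 FPKM and at 41.0, 37.5 and 40.3 FPKM. Its groups were apart and it fell by 0.28 ± 0.06 on the log2 scale (limma, adjusted p = 0.012). NDUFAF4 was at 1.04, 1.44 and 1.13 FPKM and at 0.921, 1.11 and 0.948 FPKM, with overlapping groups, so that a fall shared by this pair was not shown.

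NDUFAF7, a methyltransferase that acts during assembly, was at 0.981 ± 0.145 and 0.978 ± 0.0859 FPKM (SD, n = 3) (log2 fold change 0.00 ± 0.15). NDUFAF8, the partner of NDUFAF5, was at 19.3 ± 1.24 and 18.3 ± 1.28 FPKM, and NDUFAF2, a late-acting factor for the N module, at 3.11 ± 0.815 and 3.82 ± 0.822 FPKM. Neither passed the test. NDUFAF5, which hydroxylates NDUFS7, was at 0.485 ± 0.0854 and 0.459 ± 0.0187 FPKM and was below the filter. NDUFAF6 was also below it, at 0.827, 0.885 and 0.754 FPKM in control and 1.27, 0.975 and 1.10 FPKM after SF3B4 siRNA, with every siRNA library above every control. Of 9 tested assembly factors with other names, 1 rose (11.1%) and none was called lower (median 0.09), against 16.0% higher and 18.1% lower over all genes tested. The gene that rose was ACAD9, a partner of NDUFAF1, from 5.83 ± 0.382 to 7.19 ± 0.207 FPKM (0.30; limma, adjusted p = 0.031). Another partner, ECSIT, was at 7.88 ± 1.17 and 7.22 ± 0.674 FPKM and did not pass.

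Of the genes that match the symbols without being complex I subunits, NDUFA4, now assigned to cytochrome c oxidase, was at 49.5, 45.3 and 52.0 FPKM in control and at 64.7, 88.5 and 84.5 FPKM after SF3B4 siRNA (log2 fold change 0.68 ± 0.12; limma, adjusted p = 0.0050). All siRNA libraries lay above the controls, and the pseudogene NDUFA4P1 rose beside it, from 13.1 ± 2.16 to 21.9 ± 2.88 FPKM (adjusted p = 0.0057). NDUFA4L2, a paralogue known to respond to hypoxia, stayed at or under 0.363 FPKM and was not tested. The read-through gene NDUFC2-KCTD14 ranged from 2.21 to 8.49 FPKM in control and from 4.50 to 11.3 FPKM after SF3B4 siRNA and shares 52.2% of its exonic bases with NDUFC2. NDUFAB1, the mitochondrial acyl carrier protein and a complex I subunit whose symbol lies outside the rule, rose from 91.6, 86.4 and 89.0 FPKM to 118, 122 and 119.9 FPKM (0.43 ± 0.05; limma, adjusted p = 0.0011).

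Several values carry doubt because reads can belong to more than 1 gene. Of the 35 subunits, 16 shared at least 15% of their exonic bases with another gene, or had an overlapping gene or pseudogenes at 25% or more of their own level. Of the 15 of these that were tested 5 were called higher and 1 lower, and of the 19 without such a partner 6 were called higher and 1 lower. NDUFV2 has a pseudogene, NDUFV2P1, that rose from 15.4 ± 1.02 to 18.3 ± 0.761 FPKM (log2 fold change 0.25; limma, adjusted p = 0.040), close to the level of NDUFV2. AC010323.1, on the same strand with exons over 32.3% of NDUFA7, ranged from 0.0952 to 13.5 FPKM among the siRNA libraries and from 5.39 to 15.5 FPKM among the controls. NDUFA1 shares 44.5% of its exonic bases with RNF113A on the opposite strand, which was at 11.3 ± 0.695 and 11.9 ± 0.947 FPKM, a small part of the level of NDUFA1. NDUFAF3 shares 21.7% with DALRD3 on the opposite strand, at 4.36 ± 0.157 and 5.17 ± 0.632 FPKM. The strand setting is not stated in the sources used here, so reads of NDUFA1 or NDUFAF3 cannot be told apart from those of the gene on the other strand in the shared stretch. NDUFA5 has a pseudogene, NDUFA5P11, listed at 2.05 ± 0.331 and 2.17 ± 0.787 FPKM, above the level of NDUFA5 itself.

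**Figure D5:**
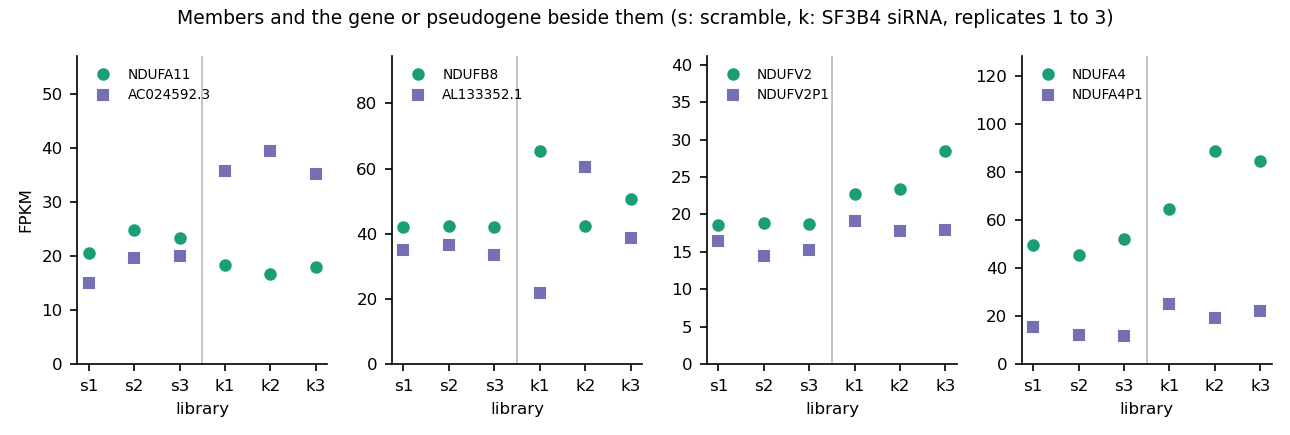
FPKM (y axis) by library (x axis, scramble siRNA s1 to s3 and SF3B4 siRNA k1 to k3) of NDUFA11, NDUFB8, NDUFV2 and NDUFA4 as green circles beside an overlapping gene or pseudogene as violet squares. AC024592.3 is higher and NDUFA11 lower in the SF3B4 siRNA libraries than in the controls, AL133352.1 is highest in SF3B4 siRNA replicate 2, where NDUFB8 is lowest among the siRNA libraries, and both pseudogenes are higher after SF3B4 siRNA, as NDUFV2 and NDUFA4 are.

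The subunit genes are short and have short 3′ UTRs. In the annotated coding transcript chosen for each gene, the median 3′ UTR was 125 bases over the 35 subunits, 548 over the NDUFAF factors and 822 over 8432 tested coding genes. The median number of exons was 4, 5 and 9, and the median transcript length 841, 1905 and 2727.5 bases. Short words in 3′ UTRs were examined because the 7-base words GCCTTCA and CCTTCAA were found earlier in these data among genes that fell, so their presence supports nothing here. At least 1 of the words occurred in 8.57% of subunit 3′ UTRs (3 of 35) and in 16.3% of those of the tested coding genes. Among 3′ UTRs of at most 300 bases it was 1 of 25 subunits and 2.48% of tested genes. Of the 3 members that fell, 1 (NDUFB7) had such a word, and of the 13 that rose, none had. Over all tested coding genes 488 of 1578 that fell and 123 of 1408 that rose had one. The window of NDUFB7 (chr19:14566078-14566105, minus strand) is shown 5′ to 3′ in GRCh38 with the word GCCTTCA in capitals.
NDUFB7: gtcaaataaaaGCCTTCAggcccctcaa
The 3′ UTR of NDUFB7 is 55 bases long, and the word lies 1 base after an AATAAA, the usual polyadenylation signal, and 10 bases before the annotated end. The words also occurred in NDUFA5, NDUFA9, NDUFAF4 and NDUFAF5, of which NDUFA9 and NDUFAF4 were tested and not called.

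Promoters of complex I genes are known for sites of NRF1, of ETS factors such as GABPA, of YY1 and of SP1. The RefSeq promoter table (GRCh38.p14, 250 bases before to 50 after the start) held 39 of the 46 members, among them 31 subunits and 7 NDUFAF factors. Exact matches were counted on both strands for the NRF1 word GCATGCGC, the ETS word CCGGAAG, the YY1 word AAGATGG and the SP1 word GGGCGGG, which do not contain one another. The NRF1 word stood in 16.1% of subunit promoters (5 of 31), in 28.6% of NDUFAF promoters and in 4.3% of all 15233 protein-coding promoters of the table. The YY1 word stood in 22.6% of subunit promoters, in no NDUFAF promoter and in 6.4% of all. The ETS word was found in 16.1% of subunit promoters and 14.4% of all, and the SP1 word in 9 of 31 subunit promoters and 45.2% of all. By outcome, the NRF1 word was found in 3 of 11 risen subunits (NDUFA8, NDUFS6 and NDUFS7), in 2 of 17 that were not called (NDUFA6 and NDUFB4) and in neither of the 2 that fell. The YY1 word was found in 2 of 11 risen subunits and 5 of 17 not called. The promoters of NDUFA8 (chr9:122159730-122160029, minus strand) and NDUFS7 (chr19:1383657-1383956, plus strand), which rose, and of NDUFB7 (chr19:14572017-14572316, minus strand), which fell, are shown 5′ to 3′ with any of the 4 words in capitals.
NDUFA8: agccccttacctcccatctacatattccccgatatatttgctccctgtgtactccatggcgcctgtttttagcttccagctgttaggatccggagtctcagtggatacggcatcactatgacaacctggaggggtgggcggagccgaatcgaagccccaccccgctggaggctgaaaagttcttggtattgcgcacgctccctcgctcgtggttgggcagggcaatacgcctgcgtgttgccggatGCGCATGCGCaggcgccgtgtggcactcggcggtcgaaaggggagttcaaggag
NDUFS7: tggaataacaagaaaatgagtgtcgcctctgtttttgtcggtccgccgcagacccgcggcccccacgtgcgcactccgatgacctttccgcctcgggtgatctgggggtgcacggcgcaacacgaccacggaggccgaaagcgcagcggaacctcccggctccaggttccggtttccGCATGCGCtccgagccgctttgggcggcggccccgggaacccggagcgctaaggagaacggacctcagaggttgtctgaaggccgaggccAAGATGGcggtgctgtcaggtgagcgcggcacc
NDUFB7: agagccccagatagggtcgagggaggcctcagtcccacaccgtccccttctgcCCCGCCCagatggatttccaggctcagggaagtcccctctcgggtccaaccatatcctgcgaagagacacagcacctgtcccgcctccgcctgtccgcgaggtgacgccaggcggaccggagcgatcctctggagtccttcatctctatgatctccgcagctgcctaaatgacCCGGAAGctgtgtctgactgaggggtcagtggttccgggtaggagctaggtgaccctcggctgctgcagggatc
NDUFA8 has the NRF1 word as an overlapping pair of both strands, NDUFS7 has the NRF1 and YY1 words, and NDUFB7 has the ETS and SP1 words without the NRF1 word. A match describes these letters alone and no binding was measured. NRF1 itself was at 2.62 ± 0.0870 and 2.74 ± 0.454 FPKM (SD, n = 3) and YY1 at 4.28 ± 0.209 and 3.58 ± 0.227 FPKM, and neither passed the test (limma, adjusted p = 0.80 and 0.074).

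Complex I also has subunits made inside the mitochondrion, the MT-ND genes. Of these 7, 6 fell (85.7%) and none was called higher. Over the tested genes of at least 5 FPKM, 19.1% fell and 20.7% rose. The median log2 fold change of the 7 was -0.36, with the siRNA libraries at medians of -0.23, -0.45 and -0.32 against the control mean. MT-ND6, the MT-ND gene with the lowest level, fell from 47.4 ± 10.3 to 30.9 ± 6.04 FPKM (SD, n = 3; log2 fold change -0.61; limma, adjusted p = 0.046). MT-ND3 fell from 1706 ± 166 to 1258 ± 43.6 FPKM (SD, n = 3; log2 fold change -0.44; limma, adjusted p = 0.0044) and MT-ND2 from 1644 ± 136 to 1281 ± 108 FPKM (-0.36; adjusted p = 0.013 in limma), and MT-ND4L fell by a like amount (-0.36; adjusted p = 0.012 in limma). MT-ND5 was at 1059 ± 71.5 and 951 ± 73.6 FPKM and did not pass. The MT-ND transcripts of the same strand come from shared precursors and so are not independent of each other. MT-ND6 alone lies on the other strand. A test of nuclear against mitochondrial subunits was not run.

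The nuclear genes of the other complexes of oxidative phosphorylation also held more risen than fallen members. Of 40 tested genes of complexes II to V, 17 were called higher (42.5%) and 3 lower (7.5%), with a median log2 fold change of 0.22 against 0.24 for the complex I subunits. Over all genes tested 16.0% were called higher and 18.1% lower, and over those of at least 5 FPKM 20.7% and 19.1%. Complex IV had 6 of 10 higher and none lower and complex V 9 of 17 higher and 1 lower, while complex III had 1 of 9 higher and 1 lower and complex II 1 of 4 higher and 1 lower. The 10 genes listed for complex IV (cytochrome c oxidase) leave out NDUFA4, described above (log2 fold change 0.68). Among those 10 the largest changes past the threshold were those of COX6C (0.53), COX6A1 (0.43), COX7C (0.38) and COX7A2 (0.36). In complex V (ATP synthase) ATP5MF (0.59), ATP5MG (0.41) and ATP5PB (0.36) rose and ATP5MC1 fell (-0.40). UQCR11 rose (0.21) and UQCRC1 fell (-0.28) in complex III, and SDHB rose (0.43) and SDHD fell (-0.60) in complex II. The list of proteins that assemble iron-sulfur clusters, which NDUFV1, NDUFV2, NDUFS1, NDUFS7 and NDUFS8 need, had 2 of 11 higher (NFS1, 0.41, and NFU1, 0.38) and 1 lower (LYRM4, -0.46). Its shares were 18.2% higher and 9.09% lower, against 16.0% and 18.1% over all genes tested. Of 5 tested regulators of mitochondrial biogenesis, ESRRA rose from 9.76 ± 0.411 to 11.9 ± 0.639 FPKM (SD, n = 3; limma, adjusted p = 0.028), while TFB2M (-0.77) and PPRC1 (-0.41) fell and PPARGC1A was listed at 0 in all libraries. Differences between complex I and the other complexes were not tested.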

How the data were processed

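RNA was sequenced from 6 libraries labelled A549, 3 with scramble siRNA and 3 with SF3B4 siRNA, grouped by sample titles. For each gene and library the authors deposited an FPKM value. The submitters' processing notes list StringTie 1.3.0, HISAT2 2.0.4 and, as genome, GRCh38. Annotation, read layout and strand setting: not given in the sources used here. Total RNA was used for the libraries, per the labels' protocols. FPKM values are not counts. In single-exon genes, 99.1% to 99.5% of low values per library came out as whole fragments (tolerance 0.02), which gave the implied depth. Multi-exon genes did not give whole fragments, so no count test was run.

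The 9685 genes that reached 1 FPKM in 3 or more libraries were tested with limma 3.58.1 in R 4.3.3 on log2(FPKM + 0.1), with trend and robust options, two-sided, and Benjamini-Hochberg adjustment over all of them (threshold 0.05). Fold changes on this scale understate changes of low genes. The test was checked on simulated data. Symbols came from a name table (35568 of 50868 identifiers), and positions, types and 3′ UTRs from GENCODE 29, which held 50111 identifiers and may differ from the authors' annotation. The transcript with the longest coding sequence, then the longest 3′ UTR, stood for a gene.

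The members, modules, comparison lists and sequence words were chosen with earlier results of these data known. One gene matched by the rule and 1 sequence window are not reported here. Every other member is accounted for. Genes of other lists are named where they passed the threshold, up to 4 per list by size, and other genes named were chosen after their values were seen. Replicates are called biological in the titles, without separate cultures being described, so p-values measure the spread between these libraries. Alternatives were 16 planned settings (pseudocount, filter, scaling, model options, replicate block, minimum fold change, each library left out) and 1 chosen after seeing the data, SF3B4 siRNA replicate 1 alone, because the other two genotype labels name other genes.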

Additional observations from a re-analysis of the deposited data

How the results depend on the processing

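With 3 libraries per group, NDUFC2-KCTD14 (SE 0.548), NDUFA12 (0.28) and NDUFAF2 (0.229), whose libraries spread widely, were the least resolved. NDUFB2, NDUFB4, NDUFAF4 and NDUFS4 followed, with SE from 0.156 to 0.163. Depth was not tested as a limit. Over 705 member results under the 17 alternatives, 620 kept direction and side of the threshold, 50 kept direction and lost their call, 12 gained one and 23 turned direction, all 23 in genes without a call in limma. NDUFA8, NDUFV1 and NDUFB7 kept their calls in all 17. The median of all genes shifted by at most 0.04 (log2) under another scaling.

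The median log2 fold change of the subunits (0.236) was 0.199 with a pseudocount of 1, 0.259 on TPM and 0.276 with median centring, and it ranged from 0.199 to 0.235 with 1 library left out. Calls over all genes moved as well, from 1546 higher and 1752 lower of 9685 in the main test. With no filter they were 1190 and 1475 of 24450, and without the trend and robust options 1460 and 1715 of 9685. Without SF3B4 siRNA replicate 1 they were 1077 and 1386 of 9518, and without scramble siRNA replicate 3 they were 1140 and 1238 of 9435. On TPM they were 1641 and 1629, after quantile normalization 1738 and 1636 and with median centring 1803 and 1579. Under these scalings more genes were called higher than lower, unlike in the main test. The subunits called higher were then 14, 12 and 13, with 2 lower each time. The 11 subunits called higher were 9 with no filter, 10 without the trend and robust options, 2 when tested against a minimum fold change of 1.2, 3 with SF3B4 siRNA replicate 1 alone (assumed to vary as the other libraries do) and 6 to 12 with 1 library left out, the 6 being without SF3B4 siRNA replicate 1. The 2 called lower were 1 at the minimum fold change, 1 with SF3B4 siRNA replicate 1 alone and 1 to 2 with 1 library left out, the 1 being without scramble siRNA replicate 3. Over all genes the counts were 420 higher and 693 lower at that minimum fold change and 384 and 808 with SF3B4 siRNA replicate 1 alone.

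For the NDUFAF factors the 1 higher became 0 at a mean FPKM of at least 5, where NDUFAF1 is no longer among the 2 genes tested, at the minimum fold change, with SF3B4 siRNA replicate 1 alone and without scramble siRNA replicate 3 or SF3B4 siRNA replicate 2 (0 to 1 with 1 library left out), and the 1 lower became 0 at the minimum fold change and with SF3B4 siRNA replicate 1 alone. Their median (-0.038) was -0.181 over those 2 genes, 0.003 after quantile normalization, 0.001 with median centring and -0.098 to -0.020 with 1 library left out.

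Direction turned for these genes. With SF3B4 siRNA replicate 1 alone, NDUFA10 was at -0.028, NDUFA12 at -0.123, NDUFB2 at 0.000, NDUFB4 at 0.252 and NDUFS3 at -0.048. By scaling or pseudocount, NDUFA2 was at 0.013 on TPM and 0.034 with median centring, NDUFB2 at 0.003 after quantile normalization and 0.009 with median centring, and NDUFAF7 at -0.001 with a pseudocount of 1. With 1 library left out, NDUFA12 ranged from -0.177 to 0.222, NDUFA2 from -0.051 to 0.034, NDUFAF7 from -0.056 to 0.069, NDUFB1 from -0.021 to 0.121, NDUFB2 from -0.169 to 0.123 and NDUFB4 from -0.232 to 0.050. The cause was not tested.

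Same-numbered libraries did not deviate together (correlations -0.08, 0.02 and -0.12), and not every library correlated best with its own number. A lack of shared deviation cannot show whether such libraries were prepared together, so pairing by number was not excluded. The main test was unpaired. With the replicate number as a block, 9 subunits were higher and 2 lower (median 0.236), without the calls of NDUFS7 (adjusted p = 0.074) and NDUFV3 (0.063), the NDUFAF factors had 1 higher and 1 lower, and 1290 genes were higher and 1537 lower over all.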
